A study of Mus musculus with 12 samples.

Results

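The 38 genes described here encode the enzymes, carriers and regulators of fatty acid oxidation. They were chosen by gene symbol, for their known role, from the 46078 gene identifiers counted in each library, and all 38 were found. They comprise the carnitine shuttle, the acyl-CoA dehydrogenases, the later steps of mitochondrial beta oxidation, auxiliary enzymes for unsaturated fatty acids, the electron transfer flavoproteins, peroxisomal oxidation, the acyl-CoA synthetases and the receptors Ppara and Ppard.

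Messenger RNA was sequenced from bone marrow-derived macrophages of male C57BL/6 mice, in 4 groups of 3 libraries. The groups were Dicer KO cells with LPS, control cells with LPS, Dicer KO cells with vehicle and control cells with vehicle. By the sample titles, Dicer KO cells came from LysMcre/+;Dicerfl/fl;ApoE-/- mice and control cells from LysMcre/+;Dicer+/+;ApoE-/- mice. Both genotypes thus lacked Apoe, and Cre was driven by the myeloid Lyz2 (LysM) locus. The labels disagree on the control cells, since a second field has them as wildtype and the file names have them as LysM wt. No age of the mice is stated. Marrow cells were matured over 7 days in medium conditioned by L929 cells, a fibroblast line that secretes macrophage growth factor, and then moved to serum-free medium. All cultures received diluted ethanol overnight, followed by lipopolysaccharide (LPS, a bacterial cell wall component sensed by TLR4) or by phosphate-buffered saline (vehicle) for 6 h. The labels write the LPS concentration as 100 ng/ul, a unit that could not be checked and may be a slip. The labels do not say whether replicates came from separate mice, and the p-values measure only the spread between these samples, which may be technical.

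Beta oxidation shortens a fatty acid, as its coenzyme A ester, by repeated cycles of dehydrogenation, hydration, a second dehydrogenation and thiolysis, and passes electrons to the respiratory chain. Long chains enter mitochondria through the carnitine shuttle, whose first enzyme, Cpt1a, is inhibited by malonyl-CoA. Very long and branched chains are shortened in peroxisomes. LPS-activated macrophages are known for a shift towards glycolysis, and Dicer, which cuts microRNA precursors, is needed for most mature microRNAs, among them miR-33, known to target fatty acid oxidation genes.

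Each library held between 16172600 and 18886948 counts in genes. Dicer1 averaged 15.5 CPM in Dicer KO LPS libraries and 49.4 CPM in control LPS libraries, and 19.7 CPM in Dicer KO vehicle libraries and 43.7 CPM in control vehicle libraries (n = 3 each; CPM is the read count scaled to library size). Lyz2 averaged 18.9 CPM in Dicer KO LPS libraries against 4060 CPM in control LPS libraries, and 14.1 CPM in Dicer KO vehicle libraries against 5714 CPM in control vehicle libraries. The genotypes thus differ at Lyz2 as well as at Dicer1, and effects of the LysM allele and of Dicer loss cannot be told apart. The titles give LysMcre/+ for both genotypes, which does not account for this Lyz2 difference. The LysM genotype of either group is therefore unsettled. Apoe RNA averaged 1.20 CPM in Dicer KO LPS against 4.24 CPM in control LPS, and 5.61 CPM in Dicer KO vehicle against 17.9 CPM in control vehicle. By edgeR's test it was lower in Dicer KO cells with LPS (log2 −1.82, adjusted p = 9.03e-07) and with vehicle (−1.67, adjusted p = 3.49e-09). These levels do not check the Apoe deletion, whose position is not given. Macrophage markers summed to 6887 to 9465 CPM in the libraries, with all 8 detected. Dendritic cell markers summed to 16.6 to 17.8 CPM in Dicer KO LPS, 6.78 to 8.45 CPM in control LPS, 2.52 to 4.42 CPM in Dicer KO vehicle and 1.18 to 1.54 CPM in control vehicle. Of these 6 markers, Ccr7 and Xcr1 made up most of the sums with LPS (means of 9.07 and 7.14 CPM in Dicer KO LPS, 5.16 and 1.5 CPM in control LPS), while the group means of Flt3, Zbtb46, Clec9a and Siglech were 0.105 to 0.434 CPM. Stromal markers summed to 22.8 to 36.7 CPM in the LPS groups and 0.618 to 1.21 CPM in the vehicle groups. Pdgfrb alone carried the LPS sums (34.5 CPM in Dicer KO LPS and 23.2 CPM in control LPS), and the group means of Col1a1, Col1a2, Col3a1 and Dcn were 0 to 0.274 CPM. Neutrophil markers summed to 93.8 to 179 CPM, while B, T and NK, mast and erythroid lists stayed at 0 to 10.5 CPM. Hba-a1, Hbb-bs, Fcer1a and Ncr1 were at 0 in all groups, Ly6g and Cd79a in Dicer KO LPS, and the stromal marker Dcn in both vehicle groups. The part of these other cell types in the results was not tested. Within their groups, the third control vehicle library (replicate 3) and the second Dicer KO vehicle library (replicate 2) were the least like the others.

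Of the 38 genes, 37 had enough counts to be tested. The exception was Ppara, the fatty acid-sensing receptor best known from liver, which had 1 count, in control vehicle replicate 3. Its summed counts in each of the other groups were 0, which allows a level of up to 0.0752 CPM in a group. Ppard, the related receptor, measured 32.6, 35.5 and 36.7 CPM in Dicer KO LPS, 34.2, 42.5 and 38.7 CPM in control LPS, 24.9, 25.0 and 27.6 CPM in Dicer KO vehicle and 29.0, 27.9 and 24.9 CPM in control vehicle. Both genotypes were higher with LPS in every library, and the genotypes overlapped in each treatment.

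Per kilobase of exon, with the exons of all annotated transcripts of a gene merged, the leading genes differed between treatments. This length can exceed that of the expressed message, so the order is not one of message number. By CPM alone Acsl1 averaged 656 in Dicer KO LPS and 717 in control LPS, above the 450 and 430 of Acsl5. In Dicer KO LPS the levels were led by Acsl5 (92.6 CPM per kb), Acaa1a (90.9), Acadl (77.4) and Acsl1 (62.5), and in control LPS by Acsl5 (88.3), Acaa1a (81.5), Acadl (73.8) and Acsl1 (68.4). In Dicer KO vehicle the leading genes were Acadl (39.5 CPM per kb), Acaa1a (29.5), Etfb (28.0) and Acaa2 (27.7), and in control vehicle Acadl (33.9), Acaa1a (27.6), Etfb (27.1) and Acaa2 (25.2). The lowest tested gene in each group was Ehhadh, at 0.176, 0.451, 0.647 and 0.881 CPM per kb in Dicer KO LPS, control LPS, Dicer KO vehicle and control vehicle. Neighbours such as Etfb and Acaa2 in vehicle lay close together, and the order of neighbours was not tested. Acaa1a has a close paralog, Acaa1b, with which reads may be shared.

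**Figure D1:**
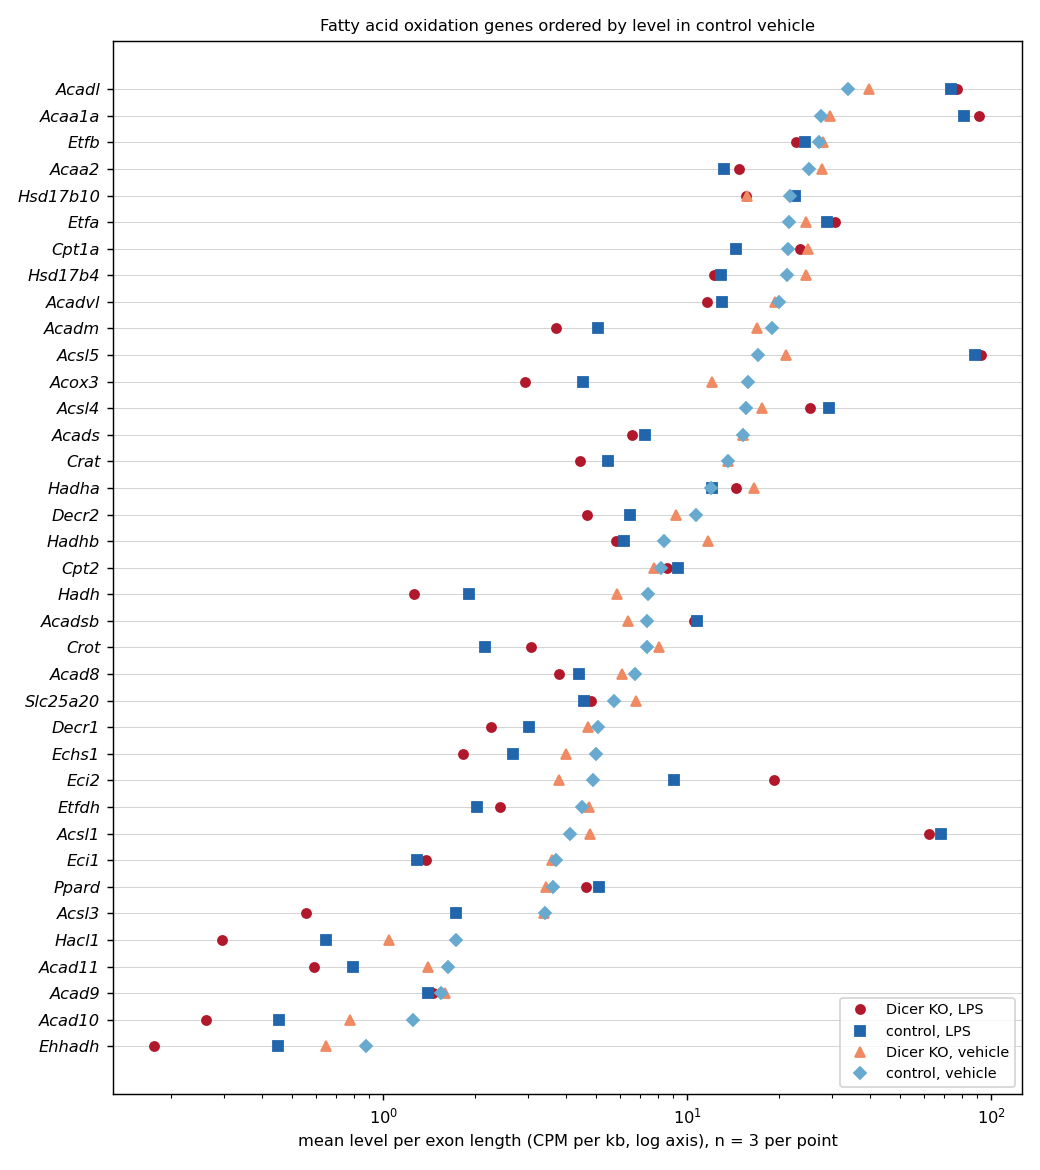
Mean level per merged exon length of the 37 tested genes on a log axis (CPM per kb, n = 3 libraries per point), one row per gene, ordered by control vehicle. Acsl1 and Acsl5 sit far to the right of their vehicle points with LPS, and Hadh, Acadm and Acox3 to the left of theirs.

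The first comparison asks how 6 h of LPS changed these genes in each genotype. With LPS most of them fell, among them the medium-chain and short-chain enzymes Acadm, Acads and Hadh, while the acyl-CoA synthetases Acsl1, Acsl4 and Acsl5 rose. In Dicer KO cells 24 of the 37 tested genes fell and 9 rose (89.2%) where 80.1% of all 13837 tested genes were called, 42.7% lower and 37.4% higher. In control cells 23 fell and 10 rose (89.2%), where 79.1% of all genes were called, 41.1% lower and 38% higher. Calls were made at an adjusted p below 0.05 in edgeR's quasi-likelihood test with Benjamini-Hochberg adjustment over all tested genes. The median log2 fold change of the 37 genes was −0.91 in Dicer KO cells, against −0.10 over all genes, and −0.63 in control cells, against −0.06 over all genes. At least 2-fold lower were 15 genes in Dicer KO and 11 in control cells, and 4 in each genotype were at least 2-fold higher. The share of all genes past 2-fold was not counted, so these counts have no background. The same direction was called in both genotypes for 22 falling and 9 rising genes. Shared calls were not counted over all genes, of which 80.1% and 79.1% were called in Dicer KO and control cells.

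These values are relative to the bulk of genes, since library scaling sets the typical gene near no change. When raw library totals replaced the scaling factors, the median of all genes moved to −0.85 in Dicer KO and −0.58 in control cells. On that scale 31 of the 37 genes fell and 5 rose in Dicer KO cells, and 28 fell and 6 rose in control cells, where 69.5% of all genes fell and 19.1% rose in Dicer KO cells, and 63.1% fell and 22.2% rose in control cells. In bulk samples, fewer cells of a type and less RNA per cell cannot be told apart.

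**Figure D2:**
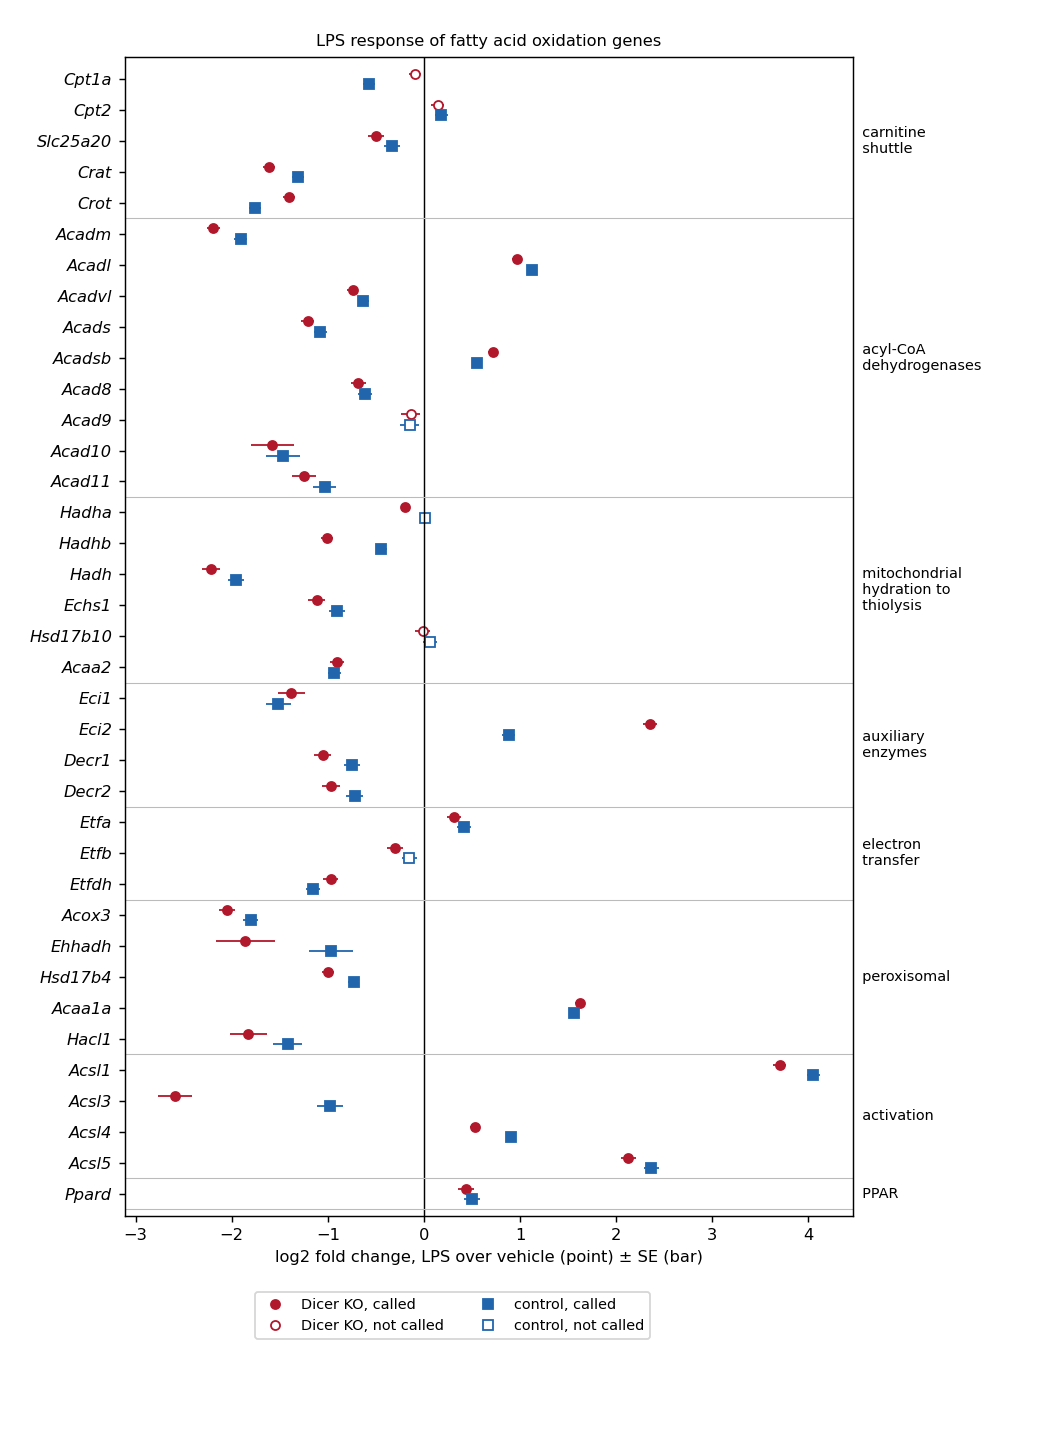
LPS response of the 37 tested genes as log2 fold change, LPS over vehicle (points) ± SE (bars), with Dicer KO drawn above control in each row; filled points were called at an adjusted p under 0.05. Most points lie left of 0, and Acsl1, Acsl5, Eci2, Acaa1a and Acadl lie right of it in both genotypes.

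The carnitine shuttle fell in part. Of its 5 genes, 3 fell and 0 rose in Dicer KO cells, and 4 fell and 1 rose in control cells. Crat, which moves short acyl groups between carnitine and coenzyme A, measured 22.5, 23.7 and 25.6 CPM with LPS and 71.7, 78.4 and 69.2 CPM with vehicle in Dicer KO cells, and 29.7, 29.7 and 29.4 CPM with LPS and 71.1, 73.0 and 75.8 CPM with vehicle in control cells. All LPS libraries were below all vehicle libraries in both genotypes. The log2 fold changes were −1.61 (SE 0.06, adjusted p = 2.65e-14) and −1.31 (SE 0.06, adjusted p = 3.23e-13). Crot, the peroxisomal octanoyltransferase, fell by 1.41 in Dicer KO and by 1.76 in control cells on the log2 scale. Slc25a20, the carnitine-acylcarnitine carrier, fell by 0.49 in Dicer KO and by 0.33 in control cells.

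Cpt1a, the regulated entry step, responded differently in the genotypes. It measured 182, 178 and 178 CPM with LPS and 209, 171 and 192 CPM with vehicle in Dicer KO cells, and 106, 113 and 112 CPM with LPS and 169, 168 and 154 CPM with vehicle in control cells. LPS and vehicle libraries overlapped in Dicer KO cells, and every LPS library was below every vehicle library in control cells. The log2 fold change was −0.09 (SE 0.06, adjusted p = 0.180) in Dicer KO cells and −0.57 (SE 0.06, adjusted p = 1.57e-07) in control cells. Without Dicer KO vehicle replicate 2, the lowest vehicle library, Cpt1a was called lower with LPS in Dicer KO cells as well (−0.17, adjusted p = 0.0118), and on library totals its fall there was −0.84. Cpt2, which returns acyl groups to coenzyme A inside mitochondria, had a log2 fold change of 0.14 in Dicer KO cells (not called) and rose by 0.18 in control cells, a call lost without control LPS replicate 1 (0.14, adjusted p = 0.0940) and turned to −0.34 on library totals.

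Of the 9 acyl-CoA dehydrogenases, 6 fell and 2 rose in each genotype. Acadm, the medium-chain enzyme, measured 12.9, 14.8 and 15.7 CPM with LPS and 62.5, 68.4 and 67.6 CPM with vehicle in Dicer KO cells, and 20.5, 19.9 and 19.2 CPM with LPS and 73.6, 76.6 and 73.1 CPM with vehicle in control cells. The groups did not overlap, with log2 fold changes of −2.19 (SE 0.07, adjusted p = 9.41e-16) and −1.91 (SE 0.06, adjusted p = 2.72e-15). Acads, the short-chain enzyme, fell by 1.21 and 1.08, and Acadvl, the very long-chain enzyme, fell by 0.74 and 0.63 in Dicer KO and control cells. In the annotation 42.9% of the exon length of Acadvl overlaps exons on the other strand, mainly of Dvl2, so its reads may be mixed.

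The long-chain enzyme Acadl went the other way. It measured 157, 151 and 157 CPM with LPS and 77.4, 80.5 and 79.8 CPM with vehicle in Dicer KO cells, and 154, 142 and 148 CPM with LPS and 71.4, 67.2 and 65.2 CPM with vehicle in control cells. Every LPS library was above every vehicle library, with log2 fold changes of 0.97 (SE 0.05, adjusted p = 1.87e-12) and 1.12 (SE 0.05, adjusted p = 2.15e-13). Acadsb, which acts in isoleucine breakdown, rose by 0.72 in Dicer KO and 0.55 in control cells, though on library totals it was −0.02 in Dicer KO cells and lost its call in control cells (0.03). Acad9, a complex I assembly factor, was not called (−0.14 in Dicer KO and −0.15 in control cells).

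Of the 6 genes for the later mitochondrial steps, 5 fell in Dicer KO and 4 in control cells, and 0 rose. Hadh, the short-chain hydroxyacyl-CoA dehydrogenase, measured 6.16, 5.78 and 6.93 CPM with LPS and 28.8, 29.0 and 30.1 CPM with vehicle in Dicer KO cells, and 9.96, 10.05 and 8.50 CPM with LPS and 37.1, 39.1 and 34.6 CPM with vehicle in control cells. The groups did not overlap in either genotype (−2.22, SE 0.09, adjusted p = 5.52e-14 in Dicer KO cells and −1.96, SE 0.08, adjusted p = 6.03e-14 in control cells). Echs1, the short-chain enoyl-CoA hydratase, fell by 1.12 and 0.90, and Acaa2, the mitochondrial thiolase, fell by 0.91 and 0.93 in Dicer KO and control cells. Hsd17b10, a dehydrogenase that is also a subunit of mitochondrial RNase P, was not called in either genotype (−0.01 and 0.06).

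Hadha and Hadhb, the alpha and beta subunits of the mitochondrial trifunctional protein for long chains, were unequal. Hadhb measured 37.1, 40.9 and 37.1 CPM with LPS and 74.5, 80.6 and 76.6 CPM with vehicle in Dicer KO cells, and 41.7, 41.5 and 38.8 CPM with LPS and 54.8, 53.9 and 57.2 CPM with vehicle in control cells. It fell in both genotypes, with LPS and vehicle libraries apart (−1.01, SE 0.06, adjusted p = 7.43e-12 in Dicer KO cells and −0.44, SE 0.06, adjusted p = 9.62e-07 in control cells). Hadha measured 122, 128 and 129 CPM with LPS and 144, 148 and 142 CPM with vehicle in Dicer KO cells, and 106, 103 and 107 CPM with LPS and 102, 105 and 108 CPM with vehicle in control cells. Its LPS libraries lay below the vehicle libraries in Dicer KO cells and overlapped them in control cells (−0.19, SE 0.05, adjusted p = 0.000887 in Dicer KO cells and 0.01, SE 0.05, adjusted p = 0.858 in control cells); on library totals the control value was −0.51. The genes are divergent neighbours on chromosome 5, Hadha at chr5:30118304-30155162 on the minus strand and Hadhb at chr5:30155248-30184593 on the plus strand (GRCm38). The 85 bases between their annotated starts are shown because both genes start from them. They read, from RefSeq GRCm38.p6 on the plus strand, with matches to GGGCGG or its reverse CCGCCC, the GC box core, in capitals:
Hadha-Hadhb gap, chr5:30155163-30155247: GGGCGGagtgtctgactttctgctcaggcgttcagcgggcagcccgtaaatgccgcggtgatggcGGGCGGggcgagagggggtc
There are 2 matches. Of 32851 mouse promoter sequences, 22.5% hold at least 1 match anywhere in the 85 bases at the same place in the sequence. The share with 2 matches was not counted. In that promoter set 33 of the 38 genes have an entry.

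Of the 4 auxiliary enzymes for unsaturated fatty acids, 3 fell and 1 rose in each genotype. The exception was Eci2, an enoyl-CoA isomerase of mitochondria and peroxisomes. It measured 105, 111 and 105 CPM with LPS and 20.4, 19.9 and 22.5 CPM with vehicle in Dicer KO cells, and 51.7, 47.5 and 50.5 CPM with LPS and 28.5, 28.5 and 24.1 CPM with vehicle in control cells. All LPS libraries were above all vehicle libraries, by 2.35 (SE 0.07, adjusted p = 3.76e-16) in Dicer KO and 0.88 (SE 0.07, adjusted p = 8.82e-10) in control cells on the log2 scale. Its mitochondrial relative Eci1 fell by 1.38 and 1.51, and the dienoyl-CoA reductases Decr1 (−1.05 and −0.75) and Decr2 (−0.97 and −0.72) fell as well, in Dicer KO and control cells.

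The electron transfer flavoprotein subunits and their oxidoreductase, which pass electrons from the dehydrogenases to ubiquinone, were split. Of 3 genes, 1 rose and 2 fell in Dicer KO cells, and 1 rose and 1 fell in control cells. Etfdh, the oxidoreductase, fell by 0.97 and 1.15, and Etfa rose by 0.31 and 0.42 in Dicer KO and control cells, but was −0.43 and −0.11 on library totals. Etfb, whose exons share 58.2% of their length with another gene on the same strand, fell by 0.30 in Dicer KO cells and was not called in control cells (−0.15).

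Of the 5 peroxisomal genes, 4 fell and 1 rose in each genotype. Acox3, the oxidase for branched chains, measured 38.8, 31.5 and 30.5 CPM with LPS and 143, 130 and 144 CPM with vehicle in Dicer KO cells, and 49.1, 53.9 and 53.8 CPM with LPS and 191, 191 and 166 CPM with vehicle in control cells. Its groups did not overlap (−2.05, SE 0.08, adjusted p = 1.72e-13 and −1.80, SE 0.08, adjusted p = 5.21e-13). The alpha oxidation lyase Hacl1 (−1.83 and −1.42), the bifunctional enzymes Ehhadh (−1.86 and −0.97) and Hsd17b4 (−0.998 and −0.73) fell too, in Dicer KO and control cells. Acaa1a, the peroxisomal thiolase, measured 418, 400 and 386 CPM with LPS and 133, 128 and 130 CPM with vehicle in Dicer KO cells, and 347, 361 and 372 CPM with LPS and 126, 117 and 122 CPM with vehicle in control cells. It rose in both genotypes, with groups apart (1.62, SE 0.05, adjusted p = 1.03e-15 and 1.56, SE 0.05, adjusted p = 1.99e-15). Its exons overlap those of Myd88 and Slc22a14 on the other strand over 6.57% of their length.

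Of the 4 acyl-CoA synthetases, which activate fatty acids for oxidation and for lipid synthesis, 3 rose and 1 fell in each genotype. Acsl1, the long-chain synthetase prominent in inflammatory macrophages, measured 597, 689 and 681 CPM with LPS and 48.4, 50.8 and 51.6 CPM with vehicle in Dicer KO cells, and 710, 733 and 708 CPM with LPS and 44.1, 40.9 and 44.6 CPM with vehicle in control cells. It was 13.0-fold higher in Dicer KO cells (adjusted p = 2.76e-19) and 16.6-fold higher in control cells (adjusted p = 1.2e-19), the largest change of the list in either genotype. Exons on the other strand overlap 9.91% of its exon length. Acsl5, found at mitochondria and endoplasmic reticulum, rose by 2.13 in Dicer KO and 2.37 in control cells, and Acsl4, which prefers arachidonate, rose by 0.53 in Dicer KO cells (−0.22 on library totals) and 0.91 in control cells. Acsl3, a lipid droplet synthetase, measured 2.18, 2.70 and 2.41 CPM with LPS and 12.8, 17.7 and 13.7 CPM with vehicle in Dicer KO cells, and 7.73, 7.75 and 7.13 CPM with LPS and 13.9, 13.0 and 17.7 CPM with vehicle in control cells. Its LPS libraries were below all vehicle libraries (−2.59, SE 0.18, adjusted p = 1.64e-10 in Dicer KO cells and −0.98, SE 0.14, adjusted p = 3.64e-06 in control cells). Ppard rose by 0.43 and 0.50 in Dicer KO and control cells, but was −0.31 and −0.02 on library totals.

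The second comparison asks how Dicer KO macrophages differed from control macrophages, with LPS and with vehicle. With LPS, Dicer KO cells had less RNA of many oxidation enzymes, among them Acsl3, Hacl1, Ehhadh, Acad10 and Acox3, and more of Eci2, Cpt1a and Crot. Acsl3, Hacl1, Ehhadh and Acad10 were low, with 97, 58, 21 and 63 summed counts in Dicer KO LPS. With LPS 16 of 37 genes were lower and 6 higher (59.5%), where 55.8% of all tested genes were called, 27% lower and 28.8% higher. The median log2 fold change was −0.13, against −0.03 over all genes. At least 2-fold lower were 3 genes, and 1 was at least 2-fold higher, again without a count over all genes. With library totals the split was 31 lower and 2 higher, where 55.1% of all genes were lower and 13.6% higher and their median was −0.38.

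With vehicle, 10 genes were lower and 11 higher in Dicer KO cells (56.8%), where 46.2% of all genes were called, 21.2% lower and 25% higher. The median was −0.01, against 0.01 over all genes. None of the 37 genes reached a 2-fold difference, a share not counted over all genes. With library totals 16 genes were lower and 3 higher, where 33.1% of all genes were lower and 16.1% higher and their median was −0.12. Lower in both treatments were 8 genes and higher in both 3, while Eci2 was higher with LPS and lower with vehicle, and Acsl4 the reverse. Calls shared by both treatments were not counted over all genes. Each genotype comparison uses the same libraries as the LPS responses, so the sets of values are not independent.

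**Figure D3:**
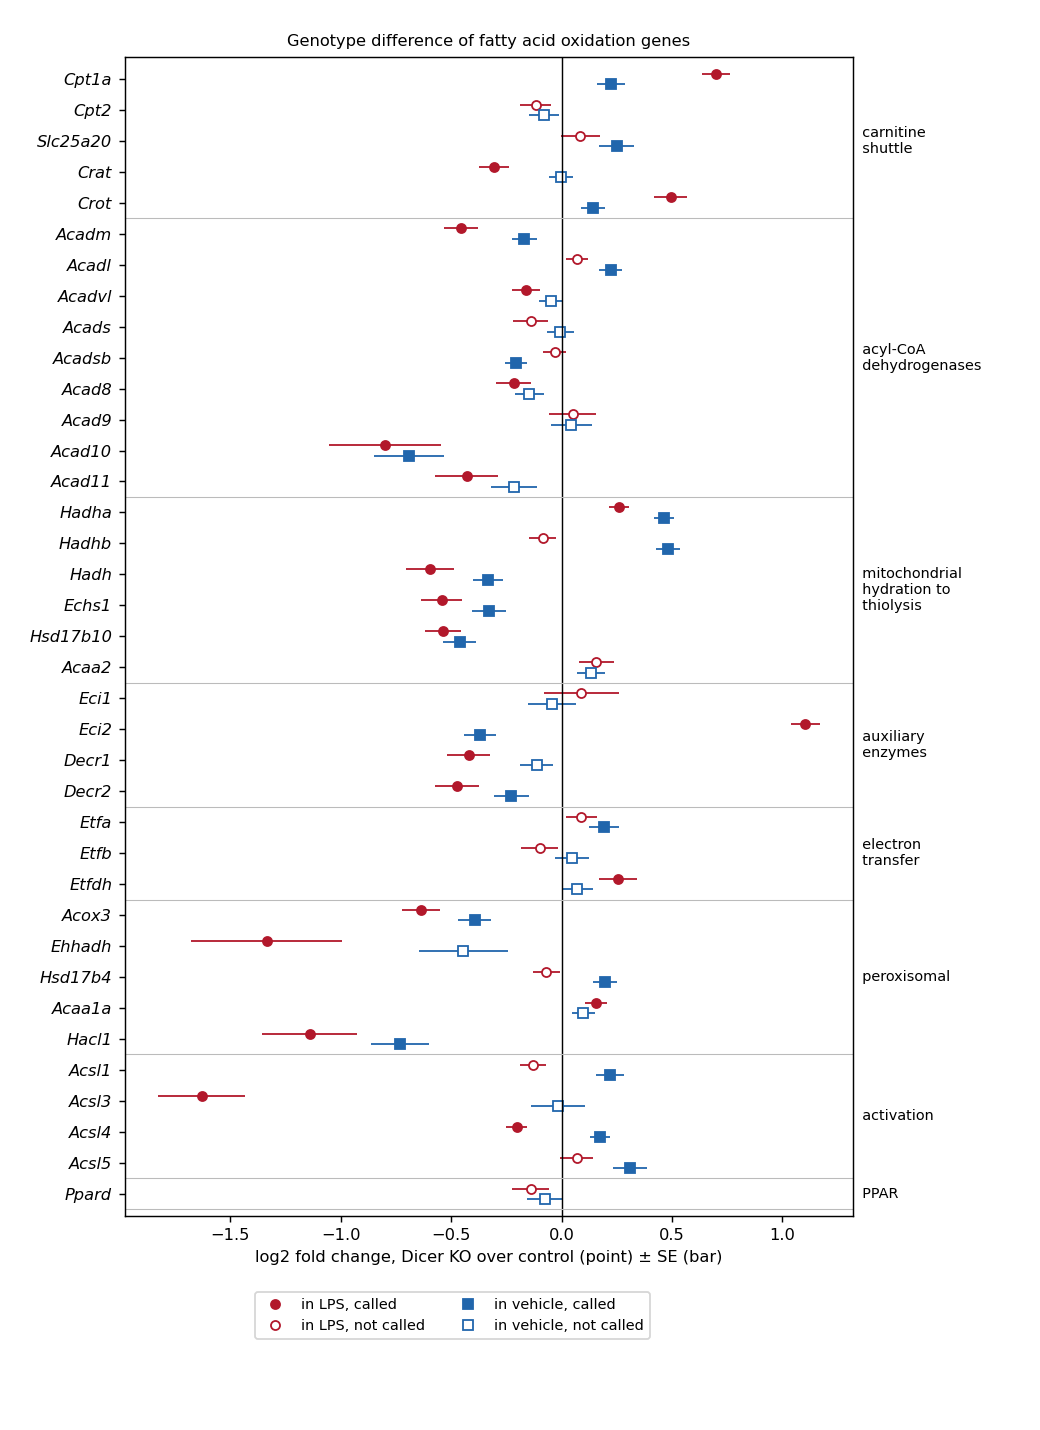
Genotype difference of the 37 tested genes as log2 fold change, Dicer KO over control (points) ± SE (bars), with the LPS comparison drawn above the vehicle comparison; filled points were called at an adjusted p under 0.05. Acsl3 (−1.63) and Ehhadh (−1.33) lie farthest below 0 and Eci2 (1.10) farthest above 0 with LPS, and Hacl1 and Acad10 lie lowest with vehicle.

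In the carnitine shuttle, Dicer KO exceeded control for 2 of 5 genes and fell short for 1 with LPS, and 3 were higher and 0 lower with vehicle. Cpt1a, whose libraries are given above, was higher in every Dicer KO library than in any control library in both treatments. It was 1.62-fold higher with LPS (log2 0.70, SE 0.06, adjusted p = 4.03e-08) and 0.22 higher on the log2 scale with vehicle (SE 0.06, adjusted p = 0.00670), the second not called on library totals (0.10, adjusted p = 0.216). Crot measured 17.1, 17.0 and 15.8 CPM in Dicer KO LPS against 12.3, 11.5 and 11.7 CPM in control LPS, and 42.9, 45.6 and 44.1 CPM in Dicer KO vehicle against 39.0, 40.8 and 40.5 CPM in control vehicle. The groups did not overlap in either treatment (0.49, SE 0.07, adjusted p = 1.69e-05 with LPS and 0.14, SE 0.06, adjusted p = 0.0424 with vehicle). The vehicle call was lost when any of 5 single libraries was left out (control vehicle replicates 1 and 2, control LPS replicate 2, and Dicer KO vehicle replicates 2 and 3; adjusted p = 0.0509 to 0.145), and on library totals neither call held (0.14 and 0.01). Slc25a20 was higher with vehicle (0.25, adjusted p = 0.0132), a call lost without control vehicle replicate 1 or Dicer KO vehicle replicate 1 or 3 (adjusted p = 0.0534 to 0.0691). Crat was lower with LPS (−0.31, SE 0.07, adjusted p = 0.000977) and measured −0.00 with vehicle (adjusted p = 0.971).

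Of the 9 dehydrogenases 5 were lower and 0 higher in Dicer KO cells with LPS, and 3 were lower and 1 higher with vehicle. For Acadm the Dicer KO libraries all lay below the control libraries in both treatments, with log2 fold changes of −0.46 (SE 0.08, adjusted p = 7.30e-05) with LPS and −0.17 (SE 0.06, adjusted p = 0.0198) with vehicle, the second lost without control vehicle replicate 2 or Dicer KO vehicle replicate 1 (adjusted p = 0.0817 to 0.115). Acad10 measured 1.35, 1.73 and 1.66 CPM in Dicer KO LPS against 2.95, 3.21 and 2.11 CPM in control LPS, and 5.91, 4.02 and 4.20 CPM in Dicer KO vehicle against 8.17, 8.31 and 6.39 CPM in control vehicle. It was lower without overlap in both treatments (−0.80, SE 0.25, adjusted p = 0.0120 and −0.69, SE 0.16, adjusted p = 0.00168), at levels of a few CPM. With LPS the call was lost without control LPS replicate 2 or Dicer KO LPS replicate 1 (adjusted p = 0.0514 to 0.0558), and that of Acad11 (−0.43, adjusted p = 0.0155) without the same libraries (adjusted p = 0.0731 to 0.0995). The calls of Acadvl (−0.16, adjusted p = 0.0402) and Acad8 (−0.22, adjusted p = 0.0284) with LPS were also fragile. That of Acadvl was lost without any 1 Dicer KO LPS library, without replicate 2 or 3 of control LPS and without replicate 2 of control vehicle (adjusted p = 0.0502 to 0.121), and that of Acad8 without control LPS replicate 1 or 3 or Dicer KO LPS replicate 2 or 3 (adjusted p = 0.0586 to 0.113). Acadl was higher in Dicer KO cells with vehicle (0.22, SE 0.05, adjusted p = 0.00166) but not called on library totals (0.10), and Acadsb was lower there (−0.21, SE 0.05, adjusted p = 0.00316).

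In the later mitochondrial steps 3 of 6 genes were lower and 1 higher with LPS, and 3 were lower and 2 higher with vehicle. Hadha, all of whose Dicer KO libraries exceeded the control libraries, was higher with LPS (0.26, SE 0.05, adjusted p = 0.000129, but −0.09 on library totals) and with vehicle (0.46, SE 0.05, adjusted p = 2.48e-07). Its partner Hadhb was higher with vehicle (0.48, SE 0.05, adjusted p = 1.06e-06), where the groups did not overlap, and not called with LPS (−0.08, SE 0.06, adjusted p = 0.252). Hsd17b10 measured 18.6, 21.9 and 20.4 CPM in Dicer KO LPS against 29.7, 27.1 and 31.6 CPM in control LPS, and 20.0, 20.5 and 20.9 CPM in Dicer KO vehicle against 30.0, 26.2 and 28.3 CPM in control vehicle. It was lower in Dicer KO cells, with no overlap, at −0.54 (SE 0.08, adjusted p = 1.73e-05) and −0.46 (SE 0.08, adjusted p = 7.07e-05). Echs1 (−0.54 and −0.33) and Hadh (−0.59 and −0.33) were lower with LPS and with vehicle.

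Among the auxiliary enzymes, Eci2 was 2.15-fold higher in Dicer KO cells with LPS (log2 1.10, SE 0.07, adjusted p = 1.34e-10) and lower with vehicle (−0.37, SE 0.07, adjusted p = 0.000462), without overlap in either. Decr2 (−0.47, adjusted p = 0.000503) and Decr1 (−0.42, adjusted p = 0.00108) were lower with LPS. Decr2 was also lower with vehicle (−0.23, adjusted p = 0.0262), a call lost when control vehicle replicate 1 or 2 or any Dicer KO vehicle library was left out (adjusted p = 0.0532 to 0.0984). Of the electron transfer genes, Etfdh was higher with LPS (0.26, adjusted p = 0.0176, lost without control LPS replicate 2 or Dicer KO LPS replicate 3 at adjusted p = 0.110 to 0.127, and −0.10 on library totals). Etfa was higher with vehicle (0.19, adjusted p = 0.0304), a call lost without control vehicle replicate 1 or 2 or Dicer KO vehicle replicate 1 or 3 (adjusted p = 0.0527 to 0.145).

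Of the 5 peroxisomal genes 3 were lower and 1 higher with LPS, and 2 were lower and 1 higher with vehicle. Hacl1 measured 1.73, 1.58 and 1.05 CPM in Dicer KO LPS against 2.88, 3.15 and 3.60 CPM in control LPS, and 4.75, 4.94 and 5.83 CPM in Dicer KO vehicle against 9.27, 9.04 and 7.48 CPM in control vehicle. It was lower in Dicer KO cells in both, with no overlap (−1.14, SE 0.22, adjusted p = 0.000192 and −0.73, SE 0.13, adjusted p = 0.000202), and shares 31.1% of its exon length with another gene on its strand. Acox3 was lower as well, at −0.64 (SE 0.09, adjusted p = 7.94e-06) with LPS and −0.39 (SE 0.07, adjusted p = 0.000334) with vehicle. Ehhadh was lower with LPS (−1.33, SE 0.34, adjusted p = 0.00272), at 0.301 to 0.751 CPM in Dicer KO and 1.03 to 1.64 CPM in control libraries. Acaa1a was higher with LPS (0.16, adjusted p = 0.0127), a call lost without control LPS replicate 1 or Dicer KO LPS replicate 1 (adjusted p = 0.0568 to 0.0615) and turned to −0.20 on library totals. Hsd17b4 was higher with vehicle (0.20, SE 0.05, adjusted p = 0.00622), though not on library totals (0.07, adjusted p = 0.274).

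Of the 4 acyl-CoA synthetases 2 were lower and 0 higher in Dicer KO cells with LPS, and 0 were lower and 3 higher with vehicle. Acsl3 was 3.09-fold lower with LPS (log2 −1.63, SE 0.20, adjusted p = 1.56e-06), without overlap, and measured −0.01 with vehicle (adjusted p = 0.938), where the libraries overlapped. Acsl4 measured 135, 137 and 139 CPM in Dicer KO LPS against 160, 155 and 158 CPM in control LPS, and 94.0, 92.8 and 97.8 CPM in Dicer KO vehicle against 81.4, 84.3 and 86.4 CPM in control vehicle. The groups did not overlap in either treatment, with Dicer KO lower with LPS (−0.20, SE 0.05, adjusted p = 0.000967) and higher with vehicle (0.17, SE 0.05, adjusted p = 0.00457; on library totals 0.05, not called). Acsl1 was not called with LPS (−0.13, SE 0.06, adjusted p = 0.0675) and was higher with vehicle (0.22, SE 0.06, adjusted p = 0.00949), a call lost without control vehicle replicate 2 (adjusted p = 0.0614). Without control vehicle replicate 3, or without Dicer KO LPS replicate 2, Acsl1 was called lower with LPS (−0.13 and −0.17, adjusted p = 0.0451 to 0.0455). Acsl5 was higher with vehicle (0.31, SE 0.08, adjusted p = 0.00352). Ppard was not called (−0.14 with LPS, adjusted p = 0.164, and −0.08 with vehicle, adjusted p = 0.467), and without control LPS replicate 1 it was called lower with LPS (−0.22, adjusted p = 0.0366).

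The third comparison asks where the LPS response itself differed between genotypes, as the response of Dicer KO minus that of control cells on the log2 scale. The difference was called for 11 of 37 genes, 3 higher and 8 lower (29.7%), where 33.7% of all genes were called, 14.9% higher and 18.8% lower. This share is near that of all genes. The median difference was −0.15, against −0.04 over all genes. With library totals 2 genes were higher and 24 lower, where 7.20% of all genes were higher and 37.1% lower and their median was −0.27. The 8 lower calls were 5 with DESeq2 size factors, which lost Acadm, Hsd17b4 and Hadha, and 4 with DESeq2, which lost Crat as well.

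Eci2 rose more in Dicer KO cells (difference 1.47, SE 0.10, adjusted p = 8.70e-09). Cpt1a (0.48, SE 0.09, adjusted p = 0.000493) and Crot (0.35, SE 0.09, adjusted p = 0.00633) had a less negative response in Dicer KO cells, Crot not so called on library totals (0.13, adjusted p = 0.285). Acsl3 fell more in Dicer KO cells (−1.61, SE 0.23, adjusted p = 4.63e-05), as did Hadhb (−0.57, SE 0.08, adjusted p = 3.46e-05) and Crat (−0.30, SE 0.09, adjusted p = 0.0132, but 0.0527 with DESeq2). The rises of Acsl4 (−0.38, SE 0.07, adjusted p = 0.000209) and Acsl1 (−0.35, SE 0.09, adjusted p = 0.00452) were smaller in Dicer KO cells.

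Acadm (−0.29, adjusted p = 0.0293), Hsd17b4 (−0.27, adjusted p = 0.0176) and Hadha (−0.20, adjusted p = 0.0231) differed too. Their calls were lost without single libraries. For Acadm these were control vehicle replicate 1, control LPS replicate 1, Dicer KO vehicle replicates 2 and 3, and Dicer KO LPS replicate 1 (adjusted p = 0.0524 to 0.102). For Hadha they were control vehicle replicate 1 and Dicer KO LPS replicate 1 (adjusted p = 0.0510 to 0.0575), and for Hsd17b4 control vehicle replicate 2 (adjusted p = 0.0531). Ppard was not called (−0.06, adjusted p = 0.717).

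**Figure D4:**
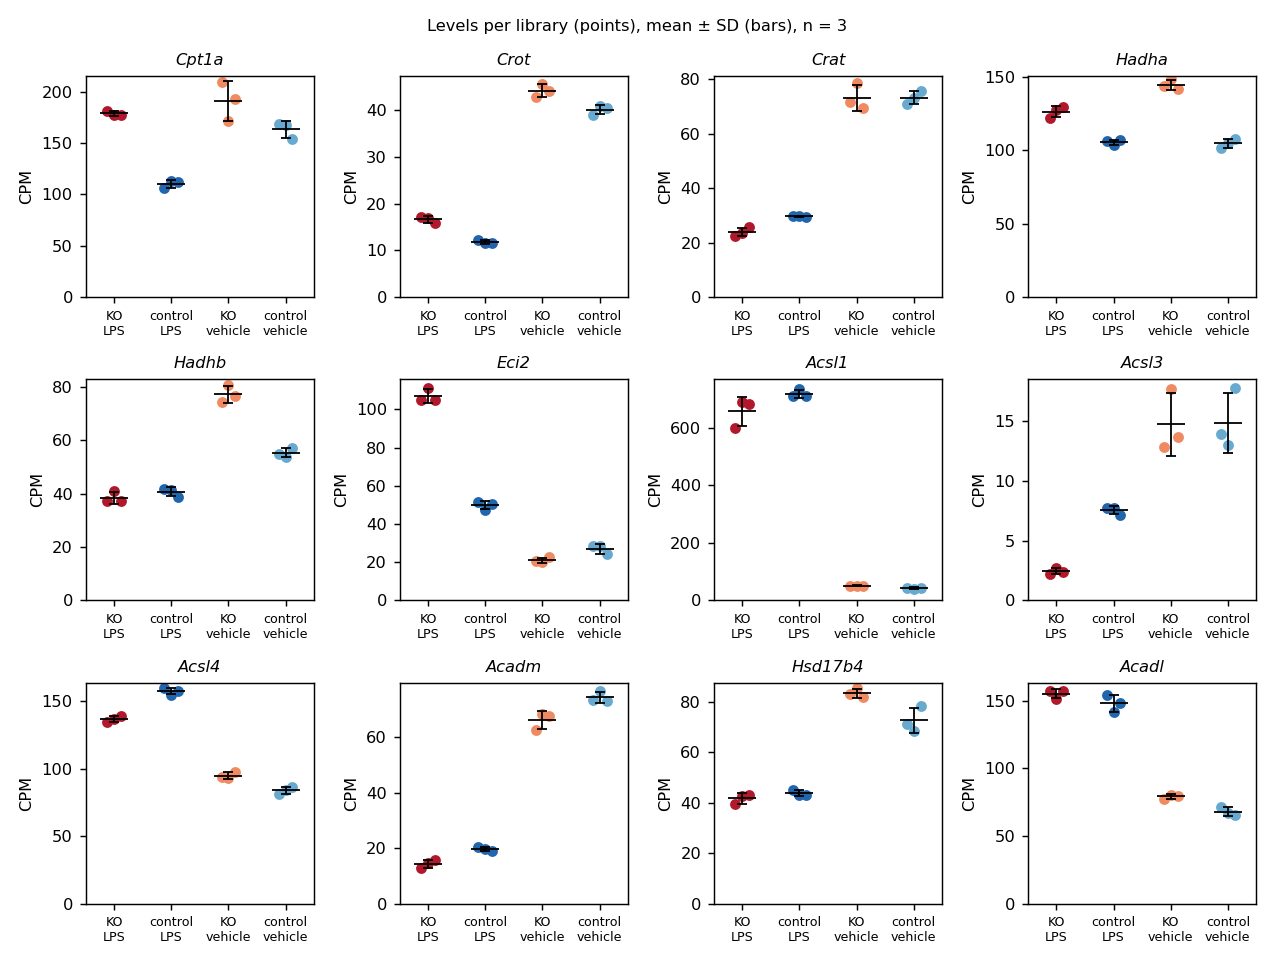
Level of 12 of the genes in every library (points, CPM) with the group mean ± SD (bars, n = 3), Dicer KO left of control within LPS and within vehicle. With LPS, Eci2 is at 105 to 111 CPM in Dicer KO and 47.5 to 51.7 CPM in control libraries, and Acsl3 at 2.18 to 2.70 CPM in Dicer KO and 7.13 to 7.75 CPM in control libraries.

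The microRNA miR-33, encoded in an intron of Srebf2, is known from human and mouse work to target the messages of Cpt1a, Crot and Hadhb. Its sequence and the matching windows are shown because these textbook targets are in the list and Dicer is needed to make the microRNA. In the mature sequence, from RefSeq (GRCm38.p6, chr15:82198127-82198147, plus strand), capitals mark the seed, bases 2 to 8:
mmu-miR-33-5p: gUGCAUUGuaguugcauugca
The complement of that seed, CAATGCA, was searched on the message strand of the longest annotated 3′ UTR of each gene. It occurs in 6 of 38 genes (15.8%) and in 7.31% of 11743 such UTRs of tested genes. Because Cpt1a, Crot and Hadhb were known targets before the search, the 15.8% is not an independent result. The 38 also include Ppara, which was not tested. The 30-base windows, read 5′ to 3′ on the message strand from GRCm38, have the match in capitals:
Cpt1a, chr19:3385474-3385503, plus: ctgagcagttacCAATGCAattttttactc
Crot, chr5:8966675-8966704, minus: gtgttgcaaccaCAATGCAaagtcagatat
Hadhb, chr5:30184137-30184166, plus: gcaatgccatttCAATGCActaccaagtga
Crat, chr2:30400840-30400869, minus: cactgaggcagaCAATGCAtgtggagttgg
Acadsb, chr7:131445623-131445652, plus: aattaatttccaCAATGCAaatcatagtta
Ppara, chr15:85801523-85801552, plus: cccaatgttaatCAATGCAcagcactctac
Mature microRNAs were not measured here. The genotype differences of these genes were not of one direction. With LPS, Cpt1a (0.70) and Crot (0.49) were higher in Dicer KO cells, Crat was lower (−0.31), and Hadhb (−0.08) and Acadsb (−0.03) were not called. With vehicle, Hadhb (0.48), Cpt1a (0.22) and Crot (0.14) were higher, Acadsb was lower (−0.21) and Crat was not called (−0.00). Of 7 further seeds of microRNAs known in macrophages that were searched in the same way, none was found in a larger number of the 38 genes. The seed of miR-27a-3p was found in as many, which is 15.8% of them, against 17.3% of all UTRs. A match in these letters does not show binding.

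The wider pathway was described with 70 related genes in 5 lists, of which 57 were tested. In Dicer KO cells 22 of the 57 were lower and 10 higher with LPS, and 14 were lower and 12 higher with vehicle. These are 56.1% and 45.6% of the tested related genes, near the 55.8% and 46.2% of all genes called. By direction, 38.6% were lower and 17.5% higher with LPS, against 27% and 28.8% of all genes. With vehicle, 24.6% were lower and 21.1% higher, against 21.2% and 25%. With LPS against vehicle, 33 fell and 14 rose in Dicer KO cells, and 33 fell and 17 rose in control cells, together 82.5% and 87.7%, against 80.1% and 79.1% of all genes. In Dicer KO cells 57.9% fell and 24.6% rose, against 42.7% and 37.4% of all genes. In control cells 57.9% fell and 29.8% rose, against 41.1% and 38%. The difference of the responses was called for 18 of the 57, 11 lower and 7 higher, which is 31.6%, against 33.7% of all genes.

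Fatty acid uptake and binding had 9 tested genes, of which 3 were higher and 3 lower in Dicer KO cells with LPS, and 4 higher and 1 lower with vehicle. The cytosolic fatty acid carrier Fabp3 averaged 85.1 CPM in Dicer KO LPS against 26.2 CPM in control LPS, and 14.7 CPM in Dicer KO vehicle against 2.12 CPM in control vehicle. It was higher in Dicer KO cells in both (1.70, SE 0.09, adjusted p = 2.42e-11 and 2.79, SE 0.13, adjusted p = 3.01e-11); 19.6% of its exon length overlaps exons on the other strand. Fabp5 was higher too (0.61 and 0.65), and Slc27a1, a fatty acid transport protein, was higher with LPS (0.47, but not called on library totals). Fabp4 was lower with vehicle (−0.72), and with LPS it averaged 20.4 CPM in Dicer KO against 32.0 CPM in control cells. LPS raised Fabp3 by 2.53 in Dicer KO and 3.62 in control cells, and in the same order Slc27a1 fell by 1.89 and 2.22. Fabp5 fell by 1.05 in Dicer KO cells, and the acyl-CoA binding protein Dbi rose by 0.78 in control cells. The other genotype moved the same way. Fabp5 averaged 257 CPM with LPS and 520 CPM with vehicle in control cells. Dbi averaged 77.0 CPM with LPS and 52.0 CPM with vehicle in Dicer KO cells.

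Of the 8 acyl-CoA thioesterases, which release free fatty acids, 1 was higher and 2 lower in Dicer KO cells in each treatment. Acot9 was higher (0.50) and Acot2 lower (−2.22) with LPS, and Acot8 was higher (0.40) and Acot7 lower (−0.41) with vehicle, while Acot11 was lower in both (−0.41 and −0.39). Exons on the other strand overlap 12.3% of Acot8 and 20.9% of Acot11. Acot2 has near-identical paralogs, among them Acot1, so its counts are uncertain, and it averaged 0.201 CPM in Dicer KO LPS and 0.955 CPM in control LPS. With LPS, Acot9 rose by 1.65 in Dicer KO and 1.14 in control cells, and Acot13 fell by 2.01 and 2.00. Acot7 rose by 1.20 in Dicer KO cells, and in control cells averaged 61.3 CPM with LPS and 36.2 CPM with vehicle. Acot1 fell by 4.20 in control cells, from 4.71 CPM with vehicle to 0.247 CPM with LPS. In Dicer KO cells Acot1 averaged 0.100 CPM with LPS and 4.23 CPM with vehicle. Its LPS levels rest on 12 summed counts in control and 4 in Dicer KO cells, so the size of the fall is uncertain.

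Of the 22 genes for peroxisomal import, first oxidation and biogenesis, 3 were higher and 9 lower in Dicer KO cells with LPS, and 3 higher and 6 lower with vehicle. The peroxisomal acyl-CoA importer Abcd3 was lower with LPS (−0.51), the biogenesis factor Pex6 was lower in both (−0.53 and −0.44), and the phytanoyl-CoA hydroxylase Phyh was higher with LPS (0.29, but −0.06 on library totals). The importer Abcd2 (−1.02) and the import receptor Pex5 (−0.41) were lower with vehicle. Abcd2 averaged less in Dicer KO cells with LPS too (0.451 CPM against 1.26 CPM in control cells). With LPS, Abcd2 fell by 5.36 and 4.92, while Phyh rose by 1.25 and 1.04, in Dicer KO and control cells.

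Of the 8 genes for malonyl-CoA control of Cpt1, 1 was higher and 3 lower in Dicer KO cells with LPS, and 0 higher and 3 lower with vehicle. Acaca, which makes malonyl-CoA, averaged 14.5 CPM in Dicer KO LPS against 28.9 CPM in control LPS (−0.999, SE 0.11, adjusted p = 3.63e-07), and 16.5 CPM in Dicer KO vehicle against 14.3 CPM in control vehicle. It rose with LPS by 1.02 in control cells. The AMP kinase subunits Prkab2 (−1.60 and −0.72) and Prkag2 (−1.04 and −0.64) were lower in Dicer KO cells with LPS and with vehicle, and Prkag1 was lower with vehicle (−0.23). Exons on the other strand overlap 14.5% of Prkag2 and 43.7% of Prkag1. With LPS, Prkag2 fell by 5.17 in Dicer KO and 4.78 in control cells. Prkab2 fell by 1.79 in Dicer KO cells, Prkag1 fell by 0.59 in control cells, and the catalytic subunit Prkaa1 rose by 0.32 in Dicer KO cells (−0.43 on library totals). For Prkab2, Prkag1 and Prkaa1 the other genotype moved the same way. Acaca, in contrast, averaged less with LPS than with vehicle in Dicer KO cells (14.5 and 16.5 CPM). With LPS and with vehicle, control cells averaged 10.4 and 19.6 CPM for Prkab2 and 65.5 and 55.8 CPM for Prkaa1. Dicer KO cells averaged 28.3 and 36.0 CPM for Prkag1.

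Of the 10 tested PPAR partners and textbook PPAR targets, 2 were higher and 5 lower in Dicer KO cells with LPS, and 4 higher and 2 lower with vehicle. Plin2, a lipid droplet coat protein, averaged 1251 CPM in Dicer KO LPS against 575 CPM in control LPS, and 1417 CPM in Dicer KO vehicle against 958 CPM in control vehicle (1.12, SE 0.06, adjusted p = 7.06e-11 and 0.57, SE 0.06, adjusted p = 1.02e-06). Rxra, the partner receptor of the PPARs, was lower (−1.29 and −0.61). Angptl4, a PPAR target, was higher with vehicle (0.95) and had no count in either LPS group, which allows up to 0.0752 CPM. With LPS, Rxra fell by 2.44 and 1.77 in Dicer KO and control cells. The uncoupling protein gene Ucp2 fell by 0.89 in Dicer KO cells, and Pparg by 3.83 in control cells. Esrra, a receptor that drives oxidation genes, rose by 1.74 in control cells. The other genotype moved the same way. With LPS and with vehicle, Ucp2 averaged 344 and 595 CPM in control cells. Dicer KO cells averaged 4.24 and 46.0 CPM for Pparg and 76.8 and 33.9 CPM for Esrra.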

How the data were processed

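Messenger RNA of 12 cultures went through a stranded library kit, per the labels' protocols. STAR 2.5 and DESeq2 (no version), with mm10 and GRCm38.p5 as builds, are listed in the submitters' processing notes. The authors deposited whole-number counts of reads per Ensembl gene, 1 table per library. Which program counted them, with what strand setting and annotation, is not stated in the labels or files. Reads assigned to no gene, 45.8 to 46.8% of each library, stayed out of library sizes. Symbols and GRCm38 coordinates came from GENCODE M21, which matched 45143 of 46078 identifiers; the unmatched ones held 0.141% of counts.

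Counts were fitted with edgeR 4.0.16 in R 4.3.3 (filterByExpr, which kept 13837 genes, TMM scaling, robust quasi-likelihood fit, 1 mean per group over all 12 libraries, two-sided tests). TMM factors were 0.707 to 0.713 in Dicer KO LPS, 0.891 to 0.921 in control LPS, 1.19 to 1.20 in Dicer KO vehicle and 1.29 to 1.31 in control vehicle. P-values were adjusted by Benjamini-Hochberg within each of 5 comparisons, and genes were called at 0.05. SE is the log2 fold change divided by the root of its F statistic. The code was tested on simulated data. Depth limits low genes: 3 counts correspond to 0.121 to 0.226 CPM in a library, and this covers counting error only.

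Named genes were up to 3 called per role group or related list with the smallest adjusted p in each comparison, every member called in the difference of responses, and Cpt1a, Hadha, Hadhb, Acsl1, Ppara and Ppard; other members are named to complete their group. Some related genes that the rule picks are not reported here. The members and lists were chosen with earlier results of these data known. Alternatives were DESeq2 1.42.0, DESeq2 size factors, library totals, no low-count filter, only the compared groups, a replicate block and leaving out each library, and both vehicle libraries that stood apart, the last chosen after seeing the data.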

Additional observations from a re-analysis of the deposited data

Results flagged for a closer look

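The LPS response differed between Dicer KO and control cells, by edgeR's test of the difference at an adjusted p under 0.05, for 11 of the 37 tested fatty acid oxidation genes, where 33.7% of all genes passed the same test. As log2 response of Dicer KO minus that of control cells, the higher differences were Eci2 1.47, Cpt1a 0.48 and Crot 0.35. The lower ones were Acsl3 −1.61, Hadhb −0.57, Acsl4 −0.38, Acsl1 −0.35, Crat −0.30, Acadm −0.29, Hsd17b4 −0.27 and Hadha −0.20. The calls of Acadm, Hsd17b4 and Hadha were lost with DESeq2 size factors (adjusted p = 0.0503 to 0.0889) and with DESeq2 (adjusted p = 0.0682 to 0.106), and that of Crat with DESeq2 (adjusted p = 0.0527). That of Crot was lost on library totals (adjusted p = 0.285).

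Related genes named by the same test were higher for Plin2 (0.56), Acot9 (0.50), Acot7 (0.44), Pex5 (0.39), Slc27a1 (0.33) and Prkag1 (0.25). They were lower for Acot2 (−2.19), Acaca (−1.21), Fabp3 (−1.09), Prkab2 (−0.88), Rxra (−0.68), Abcd3 (−0.56), Pex11a (−0.55) and Dbi (−0.21). Acot2 had 8 summed counts in Dicer KO LPS and has near-identical paralogs, so its value is uncertain. The Prkag1 call was lost without any 1 of 8 libraries (adjusted p = 0.0527 to 0.108), namely each control vehicle library, control LPS replicates 2 and 3, Dicer KO vehicle replicate 2 and Dicer KO LPS replicates 2 and 3, and without both vehicle libraries that stood apart (adjusted p = 0.113). The Dbi call was lost without any 1 of 9 libraries (adjusted p = 0.0569 to 0.122), namely control vehicle replicates 1 and 2, control LPS replicates 1 and 3, Dicer KO vehicle replicates 2 and 3 and each Dicer KO LPS library. It was also lost with a replicate block (adjusted p = 0.0601), with no low-count filter (0.120), with DESeq2 size factors (0.125) and with DESeq2 (0.160). On library totals the calls of Acot7, Pex5, Slc27a1 and Prkag1 were lost (adjusted p = 0.0771 to 0.878).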

How the results depend on the processing

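Library totals in place of TMM moved most counts of called members. In Dicer KO against control, 2 were higher and 31 lower with LPS, and 3 higher and 16 lower with vehicle. With LPS against vehicle, 5 were higher in Dicer KO and 6 in control cells. The difference of responses was lower for 24, and for 5 with DESeq2 size factors and 4 with DESeq2. Directions that turned on library totals were, for Dicer KO against control with LPS, Hadha (−0.093), Etfdh (−0.10), Acaa1a (−0.20) and Phyh (−0.065). For LPS against vehicle they were Acadsb (−0.024), Etfa (−0.43), Acsl4 (−0.22), Ppard (−0.31) and Prkaa1 (−0.43) in Dicer KO cells, and Cpt2 (−0.34), Etfa (−0.11), Ppard (−0.022) and Hadha (−0.51) in control cells. Hadha in control cells, not called, was −0.039 with no low-count filter and −0.012 to 0.043 when 1 library was left out, lowest without control vehicle replicate 1. The response difference of Ppard, not called, was −0.15 to 0.0059, highest without control LPS replicate 2. The cause was not tested. Leaving out 1 library gave 5 to 6 higher and 13 to 17 lower members with LPS, and 8 to 11 higher and 8 to 12 lower with vehicle, in Dicer KO against control. It gave 9 to 10 higher and 24 to 25 lower with LPS in Dicer KO cells, 9 to 10 and 23 to 24 in control cells, and 3 to 4 and 6 to 9 for the difference. Calls among low genes (Ehhadh, Hacl1, Acad10) are limited by depth.

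Correlations were −0.23 to 0.18 between same-numbered libraries and −0.32 to 0.34 between libraries of different number. Whether equal numbers mark paired samples cannot be decided from 3 libraries per group. The highest value, 0.34, was between the vehicle libraries that stood apart, 1 of each genotype, and what they may share was not tested. With a replicate block the counts higher and lower were 6 and 15 with LPS and 10 and 10 with vehicle for Dicer KO against control, 9 and 24 with LPS in Dicer KO cells, 10 and 23 in control cells, and 3 and 8 for the difference. Without both vehicle libraries that stood apart they were 6 and 17, 10 and 11, 9 and 25, 10 and 23, and 4 and 8 in the same order.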
